A study of Mus musculus with 12 samples.

Results

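The miRNAs that mouse embryonic fibroblasts carry at rest were read from the 2 untreated arrays of wild-type cells, labelled ATF6bWT. Mouse miRNAs were ranked by their share of the summed signal of their array, and members of the repertoire were the 156 of 611 mouse miRNAs on the array that the scanner software marked as detected on both. The fibroblasts had a C57BL/6 background and grew in DMEM with 10% fetal bovine serum. The wider study comprised 12 one-colour miRNA arrays in 6 groups of 2, from fibroblasts with (ATF6bWT) or without (ATF6bKO) the endoplasmic reticulum stress mediator ATF6b, left untreated or given tunicamycin at 2 ug/mL for 12 h or 24 h. Arrays of a group came from independent experiments. The labels do not say how many embryos gave the cells, at which passage they were used, or whether they had been immortalised. No contrast was made among the wild-type arrays, and the other 10 arrays serve only to show in how many a miRNA was also detected and over which range its share ran.

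A miRNA is a short RNA cut from a hairpin precursor by Drosha and Dicer and loaded into an Argonaute protein. It pairs with messenger RNAs mostly through its seed, bases 2 to 8 from the 5′ end, so miRNAs with the same seed form a family with overlapping targets. A hairpin yields a strand from each arm, and usually one is kept while the other, the star strand in older names, is degraded. Fibroblasts are mesenchymal cells that lay down extracellular matrix, and miR-21, the let-7 family and the miR-199a and miR-214 pair are known as abundant in cultured cells of this kind.

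Of the 156 members, 134 were matched by name to a mature sequence of RefSeq (GRCm38.p6). They carried 97 different seeds and 89.7% of the summed signal. The sequences that follow belong to the seed families with the largest shares, and capitals mark the seed.
miR-21: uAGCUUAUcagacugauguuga
let-7a: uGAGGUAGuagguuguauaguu
let-7f: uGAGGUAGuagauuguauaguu
let-7e: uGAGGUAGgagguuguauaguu
let-7i: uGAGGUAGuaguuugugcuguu
let-7b: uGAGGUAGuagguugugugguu
let-7d: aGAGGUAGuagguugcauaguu
let-7c: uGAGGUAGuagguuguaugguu
let-7g: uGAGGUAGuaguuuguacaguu
miR-98: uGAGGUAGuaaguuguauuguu
miR-125b-5p: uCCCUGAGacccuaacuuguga
miR-125a-5p: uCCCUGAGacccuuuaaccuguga
miR-22: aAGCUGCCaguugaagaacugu
miR-29a: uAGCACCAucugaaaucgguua
miR-29b: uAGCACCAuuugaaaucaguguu
miR-29c: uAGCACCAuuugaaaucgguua
miR-199a-3p: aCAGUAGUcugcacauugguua
miR-214: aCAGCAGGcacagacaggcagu
miR-24: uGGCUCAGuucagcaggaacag
miR-23a: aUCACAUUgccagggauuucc
miR-27a: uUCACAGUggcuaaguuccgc

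The 5 seeds with the largest shares (AGCUUAU of miR-21, GAGGUAG of let-7, CCCUGAG of miR-125, AGCUGCC of miR-22 and AGCACCA of miR-29) took 57.2% of the summed signal between them. Among the 134 matched members, seeds carried by at least 2 numbered 21, and the 58 members that shared one took 34.4%. The 22 unmatched members were given no seed and are outside these counts. They include miR-23b (1.00%), miR-34c (0.645%) and miR-30d (0.185%). The let-7 seed was the most shared, with 9 members. let-7f, let-7e and let-7c each differed from let-7a at 1 position, let-7b, let-7d, let-7g and miR-98 at 2, and let-7i at 4, all outside the seed or at the first base. Array probes may cross-hybridise between such close sequences, and their part in the values was not tested.

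The repertoire was steeply uneven, and a single miRNA led it. miR-21, which is raised in fibrotic tissue, took 27.4% of the summed signal on replicate 1 and 28.7% on replicate 2, a mean of 28.0% ± 0.94 (SD, n = 2). Its signal was 18520.1 and 15413.6 in the arbitrary units of the scanner, and the arrays summed to 67644.8 and 53681.4. It ranked first on both arrays, and on the other 10 arrays its share ran from 24.6% to 31.4%. These are shares of signal, not of molecules: probes differ in how strongly they bind, and the brighter probe of a member exceeded its dimmer one by a median of 3.09-fold (147 members). RNA came from whole cultures, so a share cannot tell fewer expressing cells from less RNA per cell.

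miR-125b-5p, a homologue of the worm timing miRNA lin-4, came next with 8.26% and 7.55% (7.90% ± 0.50, SD, n = 2). miR-22, made from the non-coding transcript Mir22hg, had 6.65% and 6.51% (6.58% ± 0.10, SD, n = 2). The arrays of these neighbours in rank did not overlap. Rank 4 went to miR-720 with 4.32% and 3.95% (4.13% ± 0.27, SD, n = 2). It was later dropped from the miRNA registry miRBase as a likely fragment of a transfer RNA, so its place among miRNAs is uncertain. miR-199a-3p, whose miR-199a hairpins lie within Dnm2 and within Dnm3 and Dnm3os, had rank 5 at 3.27% and 3.26% (3.26% ± 0.0055, SD, n = 2).

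**Figure D1:**
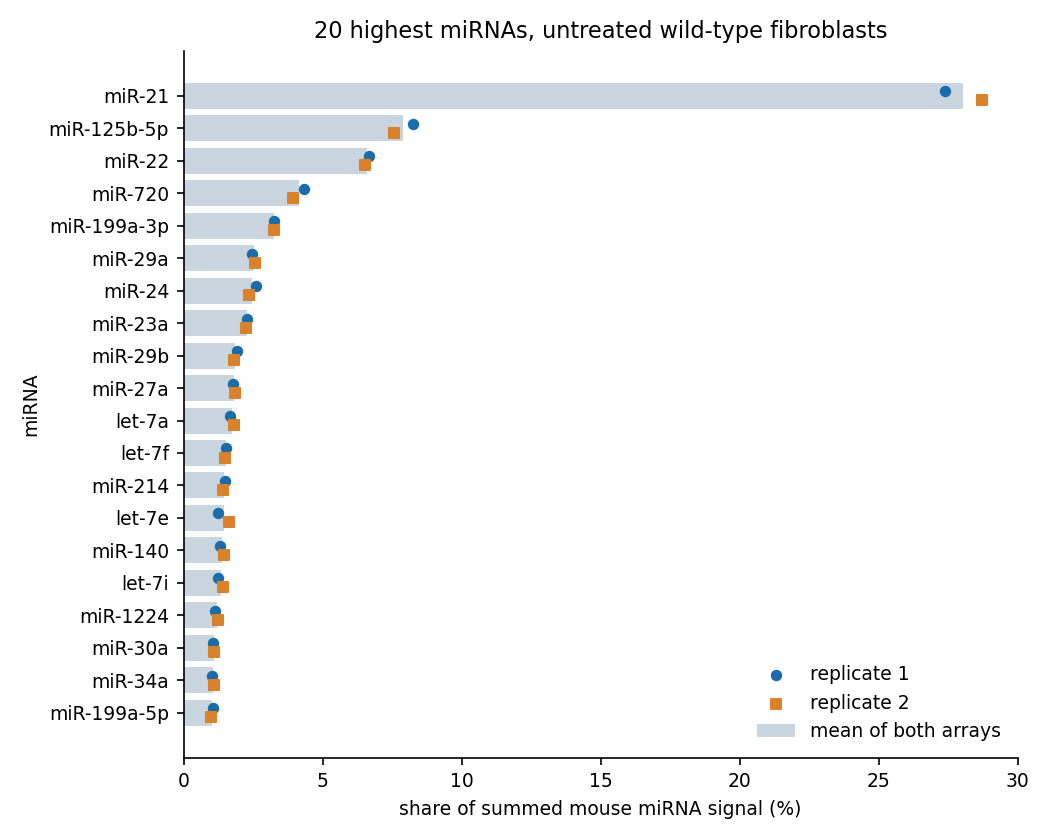
Share of the summed mouse miRNA signal (%) of the 20 highest miRNAs in untreated wild-type fibroblasts; bars are means, circles replicate 1 and squares replicate 2. miR-21 stands at 27.4% and 28.7%, and the next, miR-125b-5p, at 8.26% and 7.55%.

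Ranks 6 to 10 were miR-29a, miR-24, miR-23a, miR-29b and miR-27a. miR-29a, which represses collagens and other matrix genes, took 2.46% and 2.58% (2.52% ± 0.090, SD, n = 2). miR-24 took 2.60% and 2.35% (2.48% ± 0.18, SD, n = 2), so the order of these neighbours turned between the arrays. miR-23a followed with 2.28% and 2.25% (2.26% ± 0.025, SD, n = 2). miR-29b had 1.90% and 1.80%, and miR-27a 1.77% and 1.85%, again with the order turned on replicate 2. Beyond rank 5, neighbouring shares were close enough that a rank is no more than a rough place.

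Ranks 11 to 20 lay between 1.74% and 1.02% by their means. They were, in order, let-7a, let-7f, miR-214, let-7e, miR-140, let-7i, miR-1224, miR-30a, miR-34a and miR-199a-5p. miR-140, lodged in Wwp2 and known from cartilage, took 1.30% and 1.46% (1.38% ± 0.12, SD, n = 2). On both arrays it lay below its range on the other 10 (1.59% to 2.81%), which is a description, since those arrays differ in genotype or treatment. miR-1224, a mirtron spliced from an intron of Vwa5b2, had 1.14% and 1.24%. miR-34a, a target of p53, had 1.04% and 1.103%, above its range of 0.543% to 1.01% elsewhere. miR-30a had 1.06% and 1.11%, above its range of 0.620% to 0.966%.

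The 3 highest miRNAs took 42.5% of the summed signal, the 10 highest 60.9% and the 20 highest 74.1%. On the separate arrays the 10 highest took 60.9% and 60.8%. By the mean, 6 miRNAs sufficed for 50% of the signal, 21 for 75% and 50 for 90%; replicate 1 needed 53 for 90% and replicate 2 needed 47. A share above 1% was held by 22 members. At the other end, 71 members lay under 0.1%, and the median member had 0.120%. The dimmest of all 156 were miR-28* (0.0111%), miR-320 (0.0194%), miR-30e* (0.0210%), miR-423-5p (0.0217%) and miR-362-3p (0.0222%).

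**Figure D2:**
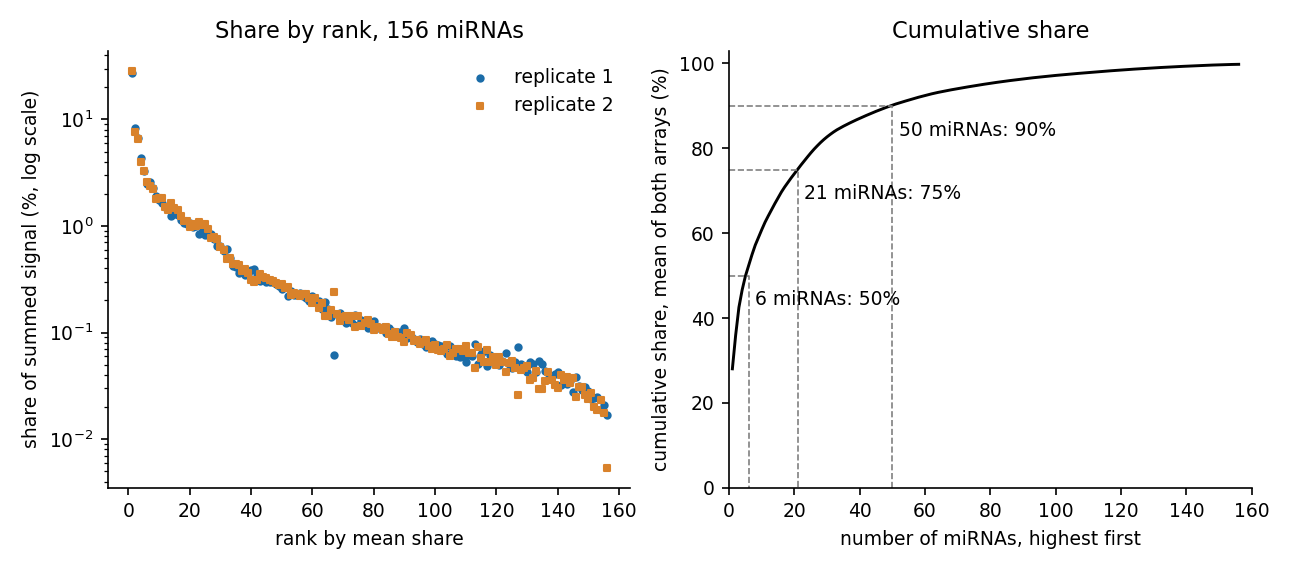
Left, share of summed signal (%, log scale) of the 156 members against their rank, circles for replicate 1 and squares for replicate 2; right, cumulative share (%, mean of both arrays) against the number of miRNAs. Dashed lines mark the 6, 21 and 50 miRNAs that reach 50%, 75% and 90%.

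Both arrays gave the same picture for bright miRNAs and a looser one for dim ones. Replicate 1 was the brighter array, with a median signal ratio of 1.25 over replicate 2. Across the 156 miRNAs, which are not independent replicates, log2 signals had a Pearson r of 0.99 and a Spearman rho of 0.98, given as a description since all values share the same 2 libraries. The arrays had 9 of their 10 highest and 19 of their 20 highest miRNAs in common. Among the 52 brightest members the median difference in share was 0.09 on the log2 scale and none exceeded 1.5-fold. Among the 52 dimmest the median was 0.24, and 7 exceeded 1.5-fold. Spots of a probe also scattered more in dim miRNAs, with a median coefficient of variation of 20.7% in the dimmest 52 against 6.63% in the brightest 52.

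Among the 60 highest members, let-7e differed most between the arrays, with 1.24% on replicate 1 and 1.64% on replicate 2. let-7b (0.837% and 1.095%) and let-7c (0.822% and 1.04%) were higher on replicate 2 as well. In the opposite direction, miR-365 had 0.391% and 0.300%, and miR-143, known from smooth muscle, 0.612% and 0.489%. Each of these differed by under 1.32-fold.

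Over all members the widest gap was that of miR-139-3p, which lies within Pde2a; it had 0.0614% and 0.238%, a 3.87-fold difference. Its spots on replicate 1 varied by 60.2%. This miRNA was singled out after its values were seen, as were miR-28* (3.12-fold, lower on replicate 2) and miR-466f-3p (2.78-fold, lower on replicate 2).

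**Figure D3:**
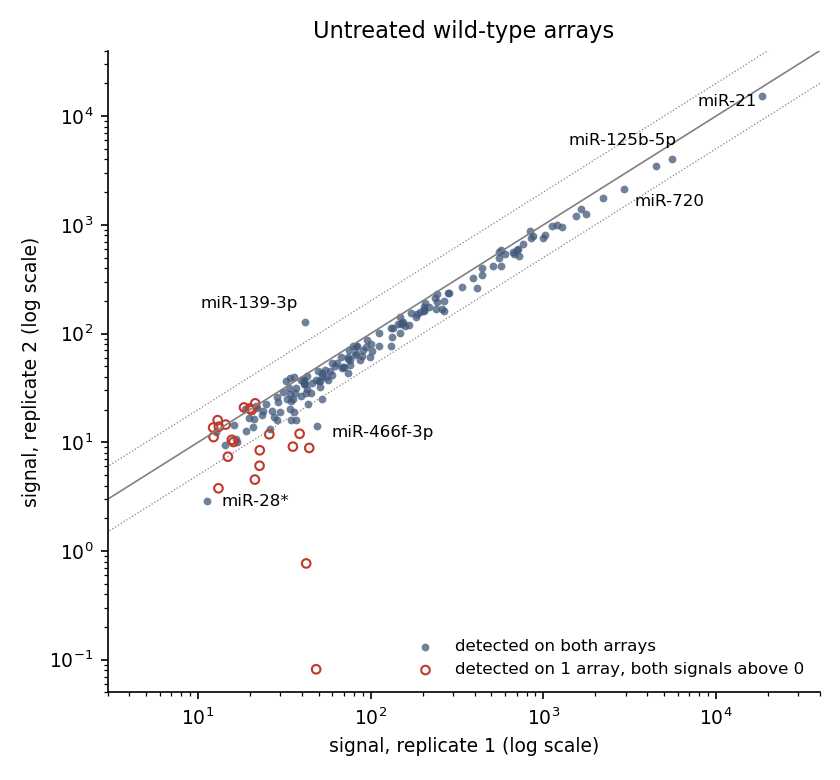
Signal on replicate 2 against signal on replicate 1 (both log scales), with filled points for the 156 miRNAs detected on both arrays and open circles for miRNAs detected on 1 array with both signals above 0. The solid line marks equal signals and dotted lines a 2-fold difference; miR-139-3p lies above the upper dotted line, and miR-28* and miR-466f-3p below the lower one.

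Detection near the limit differed by array. The software marked 172 mouse miRNAs as detected on replicate 1 and 166 on replicate 2; 16 were marked on replicate 1 alone and 10 on replicate 2 alone, and 429 on neither. The brightest of the 26 seen on 1 array was miR-715, with a signal of 48.3 on replicate 1 and 0.082 on replicate 2. miR-466g (44.1 and 8.87), miR-291b-5p (42.3 and 0.77), miR-574-3p (38.8 and 12.0) and miR-702 (35.4 and 9.13) followed, all detected on replicate 1. Replicate 1 also had more spots marked as outliers, 5.05% against 2.12%, and the part of those spots in these differences was not tested. No spot was saturated on either array.

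The repertoire was largely shared with the other arrays. Of the 156 members, 93 were detected on all 12 arrays and 137 on at least 6 of the other 10. Only 4 members were detected on 2 or fewer of the other 10: miR-210, miR-28*, miR-222 and miR-362-3p. miR-210, which hypoxia induces through HIF, had 0.0281% and 0.0238% in the untreated wild-type cells and was detected on none of the other 10 arrays, where its share ran from -0.0165% to 0.0154% (negative where background subtraction took the signal below 0). It is among the 7 dimmest members. The untreated ATF6bKO arrays both detected 133 members, and neither detected 8. Of all 611 mouse miRNAs, these arrays detected 171 on replicate 1 and 159 on replicate 2. These counts differ between arrays whose summed signal ran from 22946 to 67644.8, so depth of signal moved with them, and its part was not tested.

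The let-7 family, which represses Lin28, Hmga2 and Ras genes and rises as cells leave the embryonic state, was complete: 9 of 9 members on the array were detected. Together they took 8.70% on replicate 1 and 10.1% on replicate 2 (9.38% ± 0.96, SD, n = 2). Replicate 2 was the higher array for 8 of the 9, let-7f being the exception (1.513% and 1.504%). Below let-7a, let-7f, let-7e and let-7i stood let-7b (0.966%), let-7d (0.950%), let-7c (0.932%), let-7g (0.427%) and miR-98 (0.083%). The family's share on the other 10 arrays ran from 8.59% to 13.9%.

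The miR-125 family reached 9.10% and 8.32% (8.71% ± 0.55, SD, n = 2), nearly all from miR-125b-5p. miR-125a-5p had 0.840% and 0.775%, and miR-351 was not detected. RefSeq places miR-125a, let-7e and miR-99b next to each other within Spaca6, and the 3 miRNAs took 1.44% (let-7e), 0.807% (miR-125a-5p) and 0.226% (miR-99b). The miR-99 and miR-100 family, whose hairpins accompany let-7 and miR-125 hairpins in these clusters, was complete with 3 of 3 detected but took just 0.51%. Neighbours in a cluster thus differed several-fold in share, within the limit that probes are not calibrated to one another.

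miR-23, miR-27 and miR-24 come from a pair of clusters that carry the same trio. All 5 mature miRNAs on the array were detected, with 7.89% and 7.68% (7.78% ± 0.15, SD, n = 2). The a forms of the first cluster gave the higher signal: miR-23a took 2.26% against 1.00% for miR-23b, and miR-27a took 1.81% against 0.235% for miR-27b. The miR-23 gap is within the median of 3.09-fold between probes of 1 miRNA, so it gives no order. Cross-hybridisation between a and b forms was not tested. miR-24 is made by both clusters and cannot be assigned. The miR-29 family, 3 of 3 detected, took 4.49% and 4.51% (4.50% ± 0.015, SD, n = 2). miR-29c had 0.133% and 0.131%, far below miR-29a and miR-29b.

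The mesenchymal miRNAs miR-199a-5p, miR-199a-3p and miR-214 took 5.81% and 5.65% (5.73% ± 0.11, SD, n = 2). Of these, miR-214 comes from the Dnm3os locus, while the miR-199a strands have a second hairpin within Dnm2 and cannot be assigned to a single hairpin. miR-199b*, from a further miR-199 hairpin, took 0.385% and 0.313% and is outside this sum. Any part of the miR-199b hairpin in the miR-199a-3p signal was not tested. A list of 20 miRNAs known from fibroblasts and mesenchyme matched 21 names on the array. Of these 19 were detected, against 25.5% of all mouse miRNAs, and took 62.3% on replicate 1 and 62.4% on replicate 2. On the other 10 arrays the same miRNAs took 53.7% to 60.9%, which is below both untreated wild-type arrays. Only names detected on both untreated wild-type arrays were summed, which favours those arrays, so the gap is a description alone. Since that list was drawn up with these data known, its share describes the cells and is not independent evidence of their identity. Undetected among the 21 names were miR-145, with signals of 13.1 and 3.26, and miR-125b-3p, the other strand of the miR-125b hairpin. miR-143, which is made from the same precursor transcript as miR-145, was detected on all 12 arrays and took 0.551%. miR-222 had 0.0643% and 0.0423%, well under its cluster neighbour miR-221 with 0.654% and 0.752%. Both target the cell cycle inhibitor Cdkn1b.

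Families tied to the cell cycle were present at low shares. Of 12 miRNAs of the miR-17 clusters, which Myc induces, 9 were detected, and they took 1.60% ± 0.02 (SD, n = 2). miR-19b led with 0.501% by the mean, before miR-92a with 0.370% and miR-20a with 0.227%. miR-17 itself was not detected, with signals of -0.42 and -2.21, nor was it on any of the 12 arrays, while its star strand miR-17* was (0.0482% and 0.0467%). The miR-15 and miR-16 group restrains cyclins of the G1 phase, and 4 of its 7 miRNAs were detected with 1.02% ± 0.07 (SD, n = 2). They were miR-15b (0.393%), miR-15a (0.361%), miR-16 (0.203%) and miR-322 (0.0624%). miR-195, miR-497 and miR-503 were undetected on all 12 arrays. In the miR-34 family, which p53 induces, miR-34a, miR-34c and miR-34b-5p were detected and took 2.04% ± 0.04 (SD, n = 2); the related miR-449 miRNAs were not.

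Of the smaller families, 3 were complete. The miR-130 and miR-301 family had 4 of 4 detected and 1.42%, the miR-103 and miR-107 pair 2 of 2 and 0.514%, and the miR-26 pair 2 of 2 and 0.458%. miR-103 and miR-107 lie within pantothenate kinase genes (Pank3, Pank2 and Pank1). Of the miR-30 family, 4 of 5 were detected with 1.42%, and miR-30b was detected on replicate 1 alone. miR-181 had 3 of 4 members detected at 0.098% in all. The miR-148 and miR-152 group had 2 of 3, miR-152 with 0.072% and miR-148a with 0.0311%. Among miRNAs of the Hox clusters, which mark position along the body axis, miR-10a (0.221%, within Hoxb3) and miR-196a (0.0618%) were detected, and miR-10b, miR-196b and miR-615 were not.

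Imprinted clusters supplied many members. The Dlk1-Dio3 region, whose miRNAs are expressed from the maternal chromosome and form the longest list here, had 27 of 56 detected, or 48.2%, against 25.5% of all mouse miRNAs on the array. They took 4.40% and 4.49% (4.45% ± 0.06, SD, n = 2). miR-379 led with 0.756% and 0.781%, followed by miR-127 (0.428%), miR-410 (0.331%), miR-434-3p (0.277%), miR-300 (0.270%) and miR-329 (0.266%). In the RefSeq gene order the miRNA genes fall into runs whose neighbours lie within 10000 bases. The run that starts with Mir379 holds 39 genes and gave 21 members with 3.38%, star strands included; the run that starts with Mir770 holds 16 genes, several of them across Rtl1, and gave 8 members with 1.45%. The median share of the 27 listed members was 0.110%, close to the 0.120% of all members. The Sfmbt2 cluster, a rodent repeat cluster expressed from the paternal chromosome, had 7 of 34 detected with 0.436% and 0.331%, led by miR-669f (0.104%). That is 20.6% of its list, near the share of all mouse miRNAs.

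**Figure D4:**
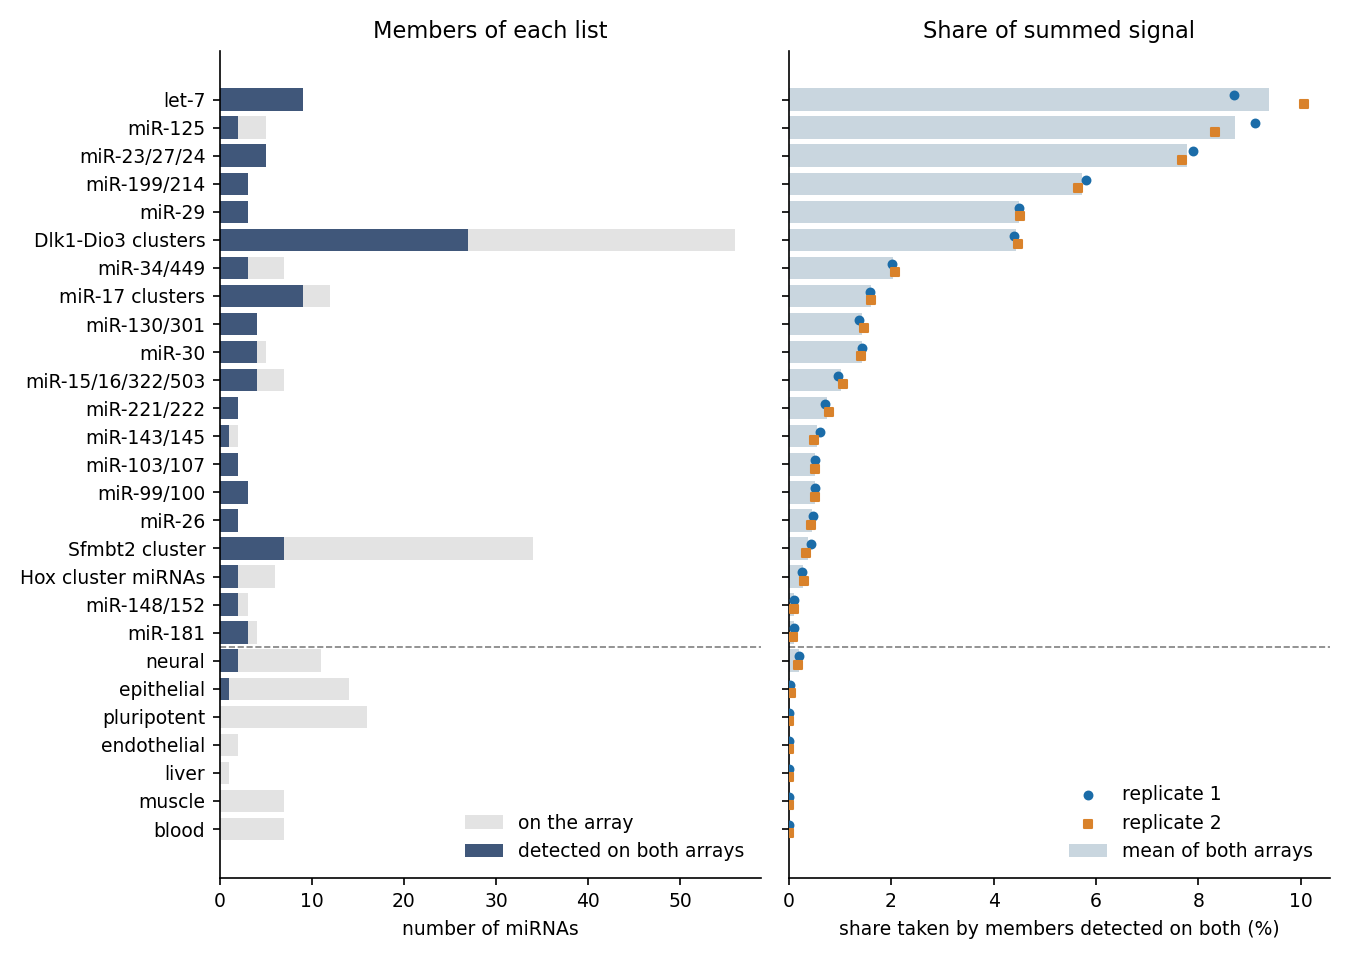
Left, number of listed miRNAs on the array (light) and detected on both untreated wild-type arrays (dark); right, share of summed signal (%) of the detected ones, with bars for means, circles for replicate 1 and squares for replicate 2. Lists under the dashed line are markers of other cell types, which reach at most 0.197%, against 9.38% for let-7.

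Markers of other cell types were nearly all below detection: 3 of 58 were detected on both arrays, or 5.17%, against 25.5% of all mouse miRNAs. Of the 611 mouse miRNAs, 429 were detected on neither array. None of 7 blood miRNA strands (both of miR-142, and miR-144, miR-150, miR-223, miR-451 and miR-486) was detected on either array. The same held for both strands of the endothelial miR-126 and for the hepatocyte miR-122. Of 7 muscle miRNAs, miR-206 was detected on replicate 2 alone (13.2 and 13.9), and miR-1 and the miR-133 pair on neither. Of 16 pluripotent and early embryonic names (miR-290 to miR-295, miR-302 and miR-367), none was detected on both arrays and miR-291b-5p on replicate 1 alone. Of 14 epithelial and endocrine names, miR-96 alone was detected on both arrays (0.0321% and 0.0402%) and miR-183 on replicate 2; the miR-200 family, which restrains Zeb1 and Zeb2, was not detected. Of 11 neural names, miR-129-3p (0.151% and 0.130%) and miR-129-5p (0.0543% and 0.0584%) were detected, while miR-9, miR-124, miR-128, miR-132 and miR-137 were not.

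Some miRNAs outside the repertoire appeared in other groups. Detected on neither untreated wild-type array but on both arrays of at least 1 other group were 12: let-7d*, miR-141, miR-197, miR-200b, miR-200c, miR-218, miR-375, miR-467b*, miR-467e*, miR-467g, miR-590-5p and miR-877*. In untreated wild-type cells the signals of miR-141, miR-200b and miR-200c lay between -4.58 and -2.29, below the array background.

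Star strands were rarer than main strands. Of 115 star names on the array, 17 were detected on both arrays, or 14.8%, against 139 of 496 other names, or 28.0%. Detected star strands took 1.82% and 1.72% (1.77% ± 0.07, SD, n = 2). Their median share was 0.0502%, against 0.132% for the other members. Among 112 pairs of a main and a star strand matched by name, both strands were detected on both arrays in 11, the main strand alone in 43, the star strand alone in 5 and neither in 45; the other 8 had a strand detected on 1 array.

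Where only the main strand was detected, its ratio has a lower bound, which grows with the signal of the main strand. Undetected miRNAs reached signals of 30.8 on replicate 1 and 25.9 on replicate 2, and a bound sets the detected strand against these. For miR-148a, miR-181a, miR-7a and miR-467b the bound was below 1 on at least 1 array, so it does not place them above their star strands. miR-21 exceeded miR-21* at least 601-fold and 594-fold, and miR-22 exceeded miR-22* at least 146-fold and 135-fold. For let-7a the bounds over let-7a* were 36.3 and 37.7, for miR-27a over miR-27a* 38.7 and 38.3, and for miR-214 over miR-214* 32.4 and 29.2. Against the lowest signal of a detected miRNA on each array, or the undetected strand's own signal where that is higher, the ratio of miR-21 was 2542 and 5356.

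The following sequences belong to strand pairs whose star strand lay within about 4-fold of the main strand, or was detected without it. The array's miR-467a* had no match in RefSeq.
miR-411: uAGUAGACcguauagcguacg
miR-411*: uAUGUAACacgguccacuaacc
miR-376a: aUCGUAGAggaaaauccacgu
miR-376a*: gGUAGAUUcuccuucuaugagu
miR-30e: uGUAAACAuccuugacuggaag
miR-30e*: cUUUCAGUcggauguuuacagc
miR-154: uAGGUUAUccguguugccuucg
miR-154*: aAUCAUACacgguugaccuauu
miR-31: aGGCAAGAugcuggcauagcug
miR-31*: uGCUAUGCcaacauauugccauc
miR-140*: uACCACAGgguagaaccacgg
miR-299*: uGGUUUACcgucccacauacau
miR-17*: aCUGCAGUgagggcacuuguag
miR-674*: cACAGCUCccaucucagaacaa
miR-135a*: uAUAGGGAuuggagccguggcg

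Seeds of the strands of a hairpin differ, so each strand has its own targets. Strands are read by different probes, and probes of 1 miRNA already differed by a median of 3.09-fold. In 66 of 147 members the probes lay over 3-fold apart on both arrays. Ratios near this spread therefore give no order of the strands, and the median is no cutoff. Among the 11 pairs, miR-411* alone had the higher signal: miR-411 had signals of 74.0 and 58.9 and miR-411* of 82.2 and 66.6, a ratio of 0.90 and 0.88. The probes of miR-411* differed by 3.20-fold and 3.50-fold, and those of miR-411 by 2.40-fold and 2.42-fold. miR-376a had 3.68 and 1.95 times the signal of miR-376a*, and miR-30e had 3.59 and 2.27 times that of miR-30e*. miR-154 (2.78 and 3.64), miR-140 (3.30 and 3.90) and miR-31 (3.43 and 3.91) also stood within 4-fold of their star strands. In these 6 of 11 pairs the strands lay close to the spread of probes.

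In the other 5 pairs the main strand exceeded the star strand at least 13.0-fold on each array. miR-30a had 14.6 and 13.0 times the signal of miR-30a*, and miR-29b 31.3 and 25.6 times that of miR-29b*. miR-24 exceeded miR-24-1* 56.4-fold and 43.4-fold and miR-24-2* 51.4-fold and 62.9-fold. Signals of miR-24 (Mir24-1 and Mir24-2) and of miR-29b (Mir29b-1 and Mir29b-2) can pool hairpins, so their ratios are not those within a single hairpin. miR-28, which lies within Lpp, exceeded miR-28* 34.7-fold and 112-fold, the widest spread between the arrays, since miR-28* had signals of 11.3 and 2.88. miR-30a* and miR-30e* carry the same seed, as miR-30a and miR-30e do.

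Of the 5 star strands detected without their main strand, miR-299* was the brightest, at 0.301% and 0.310%, and rank 46. Its signals were 204 and 166 against 3.74 and -4.13 for miR-299, at least 6.60-fold and 6.41-fold by the bound above. The signals of miR-17* (32.6 and 25.04), miR-674* (23.6 and 17.9), miR-135a* (36.7 and 15.9) and miR-467a* (26.0 and 13.3) were no higher than undetected miRNAs reach on at least 1 array, so no bound is given for them.

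Hairpins named by arm had either side detected. Of 65 pairs with a 5p and a 3p name, 6 had both strands detected, 8 the 5p strand alone, 5 the 3p strand alone and 40 neither. By their probes, also uncalibrated, miR-199a-3p had signals of 2211 and 1750 against 720 and 523 for miR-199a-5p, 3.07 and 3.35 times as much. The probes of miR-199a-5p differed by 7.36-fold and 7.61-fold and those of miR-199a-3p by 1.98-fold and 2.08-fold, so this gives no order. Both strands come from more than a single hairpin, and any part of miR-199b in the 3p signal was not tested. miR-434-3p stood 2.97-fold and 2.98-fold above miR-434-5p, and miR-129-3p 2.79-fold and 2.22-fold above miR-129-5p. The strands of miR-409 were nearly level, with 5p to 3p ratios of 0.813 and 0.995. miR-337-5p (1.43 and 1.70) and miR-362-5p (2.09 and 2.23) had the higher signals of their hairpins. Among pairs with a single detected arm, miR-125b-5p exceeded miR-125b-3p at least 181-fold and 156-fold. The 5p signal can pool the hairpins Mir125b-1 and Mir125b-2, so this may not be the ratio within a single hairpin.

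**Figure D5:**
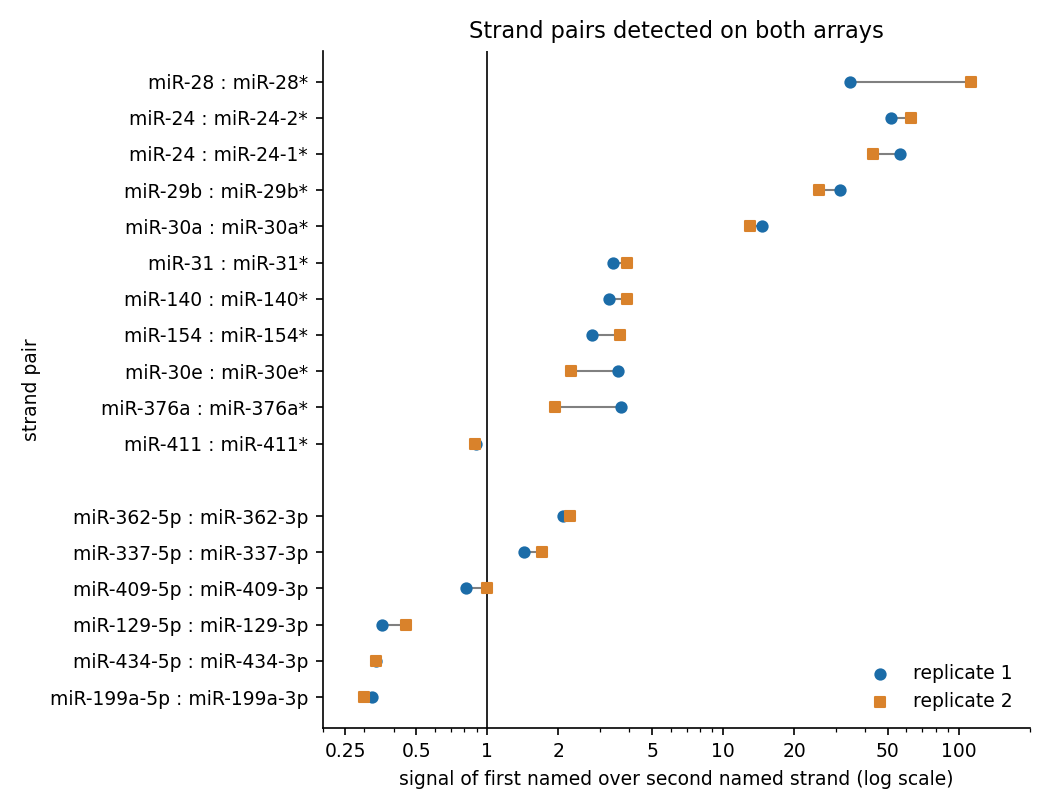
Signal of the first named over the second named strand (log scale) for the 17 pairs with both strands detected on both arrays, main over star strand above the gap and 5p over 3p below it; circles are replicate 1 and squares replicate 2. miR-411 : miR-411* is the one star pair left of equality, and miR-28 : miR-28* spans 34.7 to 112.

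GC content was similar in high and low members. Over the 134 matched members the median GC content was 45.5%, from 31.8% to 72.7%, and the median was 45.5% in the 20 highest and 48.9% in the 20 lowest of them. Across these miRNAs, which share both libraries, GC content and share had a Spearman rho of -0.14, given as a description.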

How the data were processed

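Mature miRNAs were measured in total RNA from mouse embryonic fibroblasts on 1-colour Agilent arrays, labelled with Cy3 from 100 ng of RNA per the labels' protocols. The authors deposited scanner tables of spot intensity on a linear scale, which per the submitters' processing notes came from Agilent Feature Extraction 10.7.1.1. Intensity after background subtraction was used. A log2 table was deposited by the authors too; it matched the logarithm of gene totals in the scanner files to within 1.18e-06 and is empty where a miRNA was undetected. Its columns have medians of 6.56 and 6.33 for the untreated wild-type arrays and are not scaled between arrays.

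Each array held 13000 spots of 1857 probes for 650 miRNAs, 611 of them mouse. The 715 control spots and the spots marked as outliers were left out, spots of a probe were averaged, probes of a miRNA were summed, and a share is the percent of the sum over all mouse miRNAs, detected or not. The sum holds small negative values, so the members' shares can exceed 100% of it. Checks on simulated shares recovered the 100 highest of 611 with a median error of 1.76% and a largest error of 11.5%. Simulated probes summed to their miRNA, and every spiked spot was marked as an outlier. These errors thus cover arithmetic and spot noise, not probe binding or cross-hybridisation. Scripts used Python 3.11.15 with pandas 2.3.3, and limma 3.58.1 in R 4.3.3 for normexp, which ran on median spot signals. No test was made, since 2 arrays of 1 group allow none; the number of arrays limits the precision, and an SD over 2 values is itself rough.

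Named miRNAs were the 20 highest, up to 6 of the highest detected members of each of 28 lists, strand pairs with both strands detected, the 5 members of the 60 highest that differ most between the arrays, the 5 dimmest members and the 5 brightest seen on 1 array. The members and lists were chosen with earlier results of these data known. Names follow the files, and 22 members were not matched to RefSeq. No coordinates are given, because no source used here gives a genome build for the array. Alternatives covered outlier spots, the signal measure, background correction, probe averaging, the denominator, the detection rule, each array left out, miR-720 left out and the floor for undetected strands.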

Additional observations from a re-analysis of the deposited data

Results flagged for a closer look

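The array also carries 39 viral miRNA names, which no comparison uses, and 1 of them was marked as detected on both untreated wild-type arrays: mghv-miR-M1-2, named for a mouse gammaherpesvirus. Its signal was 132 on replicate 1 and 37.7 on replicate 2, equal to 0.196% and 0.0702% of the summed mouse signal, and it was detected on 10 of the 12 arrays. Whether its probes respond to viral or to mouse RNA was not tested.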

How the results depend on the processing

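Of 89 values recomputed under other settings, 58 stayed within the spread of the arrays (or, for counts, within 1.5 times) and 31 did not. For shares, that spread was the SD of the values from each array alone, with the miRNAs detected on it. For star strands it was 0.108, wider than the SD of 0.07 over the members detected on both arrays. The count of members was 182 if detection on 1 array sufficed and 134 if a probe had to stand well above background, and no setting moved it by over 1.5 times. Background correction by normexp with an offset of 50 lowered miR-21 to 9.96%, the 10 highest to 22.4% and let-7 to 3.96%, raised star strands to 2.22% and put 21 star strands above their main strand in place of 6 (over pairs with at least 1 strand detected). Without the offset, chosen after seeing the data, the values were 20.9%, 46.0%, 7.24% and 1.96%, and 7 star strands were higher, so the 21 came with the offset. The correction leaves a positive value on every undetected probe, and under neither form did the members reach 90% of the sum. The software's total gene signal gave 22.3% for miR-21, 50.8% for the 10 highest, 7.46% for let-7, 7.03% for star strands, 94 miRNAs for 90% of the sum and 10 pairs with the star strand higher. The sum of a miRNA's own probe totals, also chosen after seeing the data, gave 28.2%, 61.2%, 9.43%, 1.68%, 50 and 6, near the reported values. The remaining shifts were small: for the 10 highest 60.05% with all spots, 61.2% with probes averaged, 61.0% over detected miRNAs (60.9746) and 61.0% without miR-720 (60.9757), for miR-21 29.3% without miR-720, and for star strands 1.62% with a probe well above background. With 1 array left out, the 10 highest ran from 60.8354% to 60.8894% and star strands from 1.76% to 1.91%. No paired analysis was possible because no result comes from a test between groups. Setting an undetected strand at the highest undetected signal, also chosen after seeing the data, lowered all 7 folds compared, that of miR-21 over miR-21* from a geometric mean of 3690 to 597. Signal near background limits the dim members: detected signals began at 7.29 and 2.88, while undetected miRNAs reached 30.8 and 25.9.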

Other observations

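The software's total gene signal, which is also the source of the authors' deposited log2 table, did not always describe the miRNA it is listed for. On the untreated wild-type arrays it was, for most detected mouse miRNAs, a sum of some or all of the miRNA's own probe totals. The total was such a sum for 119 of 172 on replicate 1 and for 115 of 166 on replicate 2. For the other 53 and 51 it equalled, within 0.05 signal units and a hundred-thousandth of the total, some of the miRNA's own probe totals plus the total of the detected miRNA just before it in name order. Over the 12 arrays the same sum accounted for 614 of 614 such totals among 1893 detected values, and the miRNA just after in name order accounted for 3.

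The affected miRNAs were dim ones, and the added amount was large for some. miR-7a, which follows miR-720 in name order, was listed at 1881 and 1417, while its own probes summed to 15.3 and 12.9 and miR-720 was listed at 1867 and 1406. miR-24-1*, which follows miR-24, was listed at 1139 and 853 against 19.9 and 19.3 from its own probes. miR-29b* was listed at 831 and 650 against 13.1 and 12.5, and miR-28* at 255 and 217 against 3.62 and 0.955. The sums ran on where several such names follow each other: on replicate 2 miR-24 passed to miR-24-1*, then to miR-24-2* (861) and on to miR-25 (898, against 40.4 from its own probes). The pass did not always happen on both arrays, so miR-25 was listed at 59.1 on replicate 1 and at 898 on replicate 2, although its own probes summed to 42.8 and 40.4.

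On at least 1 of the untreated wild-type arrays 65 miRNAs were affected, 39 of them on both, and for 25 the listed total exceeded the own probes by over 10-fold. In these totals 4 star strands that lay below their main strand by probe signal came out level with or above it (miR-24-1*, miR-28*, miR-29b* and miR-376a*), and miR-337 changed its leading arm. miR-30a fell in them from 1.08% to 0.552% and rank 35, while miR-34a went from 1.07% to 0.852% and rank 23. The cause of that fall was not tested. The 60 highest members had no share that rose over 2-fold, against 32 of all 156 members. The other 10 arrays held 42 to 66 such totals each. The values reported here rest on probe signals and do not use these totals.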
